A study of Caenorhabditis elegans with 32 samples.

Results

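Untreated worms of the parental generation (P0) were compared between the hrde-1 mutant and the wild type (WT) of the nematode Caenorhabditis elegans, across all genes of a poly(A) RNA-seq table. The comparison holds 4 of the 32 libraries of the series: P0 hrde-1 normoxia replicates 1 and 2, and P0 WT normoxia replicates 1 and 2, chosen by their labels and not by any measured value. The series has 16 groups of 2 libraries, which cross both genotypes with the label hypoxia or normoxia in P0 and in each of the generations F1 to F3. Groups used beside the 4 P0 libraries were F1 hrde-1 and F1 WT normoxia, F3 hrde-1 and F3 WT normoxia, and P0 hrde-1 and P0 WT hypoxia. Per the labels' protocols, all worms had been kept fed at 20 °C before the experiment. Hypoxic P0 worms spent 16 hours at 0.1% oxygen from the L4 larval stage and were then returned to about 20% oxygen, while normoxic worms had no such exposure. Each library came from whole worms. The sources used here do not give the hrde-1 allele, the strain names, the number of worms pooled or the stage at collection. Nor do the labels say whether the 2 libraries of a group were separate cultures. The p-values of the main fit then cover only the spread between libraries of the same group, estimated over all 15 groups fitted together. That spread may be technical.

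HRDE-1 is a nuclear Argonaute protein of the germline. It carries secondary small interfering RNAs (22G-RNAs), which are made by RNA-dependent RNA polymerases, to matching nascent transcripts, where the NRDE proteins and histone H3 lysine 9 methylation silence the locus. This nuclear RNAi pathway keeps certain genes, transposons and pseudogenes silent in the germline and is known for passing that silence from parent to offspring, and hrde-1 mutants become progressively sterile at raised temperature.

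Values are given as CPM, the estimated counts scaled to a common effective library size and not to gene length. Log2 fold changes are hrde-1 over WT with their standard error. Adjusted p-values come from edgeR's quasi-likelihood test with Benjamini-Hochberg adjustment over 15536 tested genes, and a gene was called at an adjusted p under 0.05. The fit held 30 libraries in 15 groups. In it 2364 genes were higher in hrde-1 (15.2% of those tested) and 1138 were lower (7.32%). The called genes had a median log2 fold change of 0.96 when higher and -1.19 when lower, and the median over all tested genes was -0.06. Of the 3502 called genes, 3474 had CPM values that did not overlap between the 2 strains, which was also true of 63.5% of all tested genes. A fit of the 4 P0 normoxia libraries alone, with 2 residual degrees of freedom, called 65 higher (0.462% of 14059 tested) and 19 lower (0.135%), together 0.597%, all of them also called in the larger fit, and 3423 genes at an unadjusted p under 0.05. Without WT replicate 2 the larger fit called 884 higher and 216 lower, without hrde-1 replicate 1 it called 1067 and 202, and without hrde-1 replicate 2 it called 2949 and 2240. With library totals alone as the scaling, 1642 genes were higher and 2041 lower, so that 44.6% of calls were higher in place of 67.5%, and the median over all tested genes was -0.26.

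Total estimated counts were 12748194 and 10306622 in the hrde-1 libraries, against 13045577 and 12830233 in the WT libraries, within the range of 9722580 to 16555982 over the libraries fitted. The replicates correlated across genes on the log2(CPM + 1) scale with r = 0.964 in hrde-1 and r = 0.989 in WT. The second hrde-1 library correlated with the first WT library at r = 0.965, slightly above its correlation with its own replicate. In keeping with this, hrde-1 replicate 1 lay above replicate 2 in 71.3% of the genes called higher and in 15.5% of those called lower, against 41.8% of all tested genes. The 2 P0 WT normoxia libraries stood furthest from the later generations, with mean correlations of 0.881 and 0.855, against 0.948 and 0.922 for the hrde-1 libraries.

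Several genes reported as targets of nuclear RNAi differed by large factors. Of the 7 such genes in the list, 5 were higher in hrde-1 and none was lower, with a median log2 fold change of 5.98. This count and median include both copies of a pair with identical counts, given below. C38D9.2, a reported HRDE-1 target on chromosome V (WBcel235 17567150 to 17571742, plus strand), had 264 and 186 CPM in hrde-1, against 1.52 and 1.34 CPM in WT. It rose by 7.29 ± 0.29 on the log2 scale (adjusted p = 1.76e-12), and it was called in the 4-library fit as well (adjusted p = 0.0045). F15D4.5, another target on chromosome II (13245376 to 13247774), had 368 and 254 CPM in hrde-1, against 5.06 and 4.75 CPM in WT (log2 fold change 5.98 ± 0.32, adjusted p = 1.16e-10). F07B7.2 and W09B7.2, a pair of gene copies on chromosome V with identical counts, each had 103 and 80.6 CPM in hrde-1, against 0.337 and 0.335 CPM in WT (8.05 ± 0.49, adjusted p = 5.54e-10). Reads of such copies cannot be assigned to one of them, and the pair is best read as 1 measurement. bath-45, which encodes a protein with BTB and MATH domains, had 9.27 and 10.5 CPM in hrde-1, against 1.29 and 0.559 CPM in WT (3.40 ± 0.50, adjusted p = 9.52e-05). In each of these genes both hrde-1 libraries lay far above both WT libraries.

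The other members of that list did not pass the test. E01G4.5 had 16.0 and 32.7 CPM in hrde-1, against 13.1 and 13.9 CPM in WT, with an adjusted p of 0.0508. R03H10.6 had 0.739 and 0.710 CPM in hrde-1, against 0.843 and 1.34 CPM in WT, with an adjusted p of 0.414. In the plot of selected genes by library these are the 2 targets whose strains lie close together. The summed level of the list was 863 and 645 CPM in the hrde-1 libraries, against 22.5 CPM in each WT library.

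**Figure D1:**
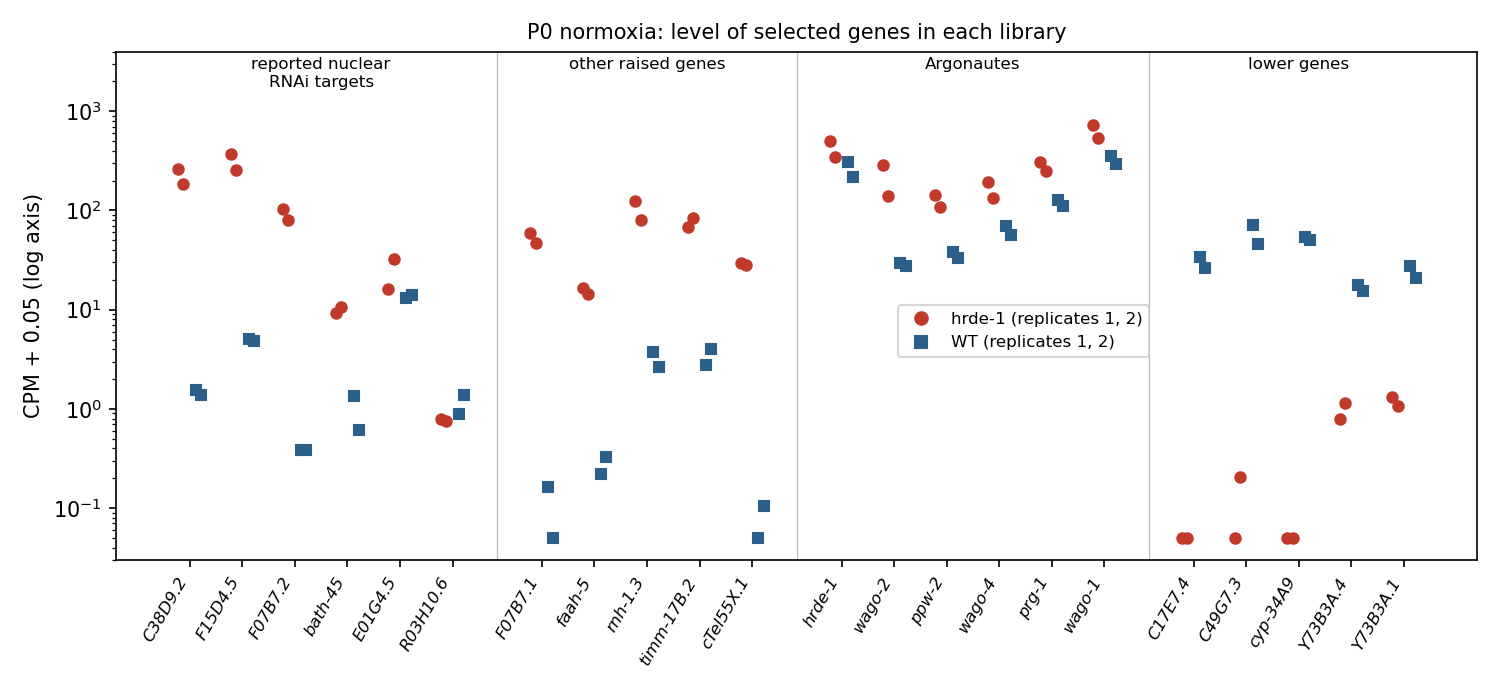
Level of selected genes in the 4 P0 normoxia libraries, as CPM plus an offset of 0.05 on a log axis, with hrde-1 replicates as circles and WT replicates as squares. The reported targets C38D9.2, F15D4.5, F07B7.2 and bath-45 lie far apart between the strains, E01G4.5 and R03H10.6 lie close together, the Argonaute genes differ by smaller factors, and the genes of the right-hand panel are at 1.28 CPM or less in hrde-1.

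Genes outside that list behaved in the same manner. F07B7.1 and W09B7.1, which lie beside the previous pair and again have identical counts, had 59.1 and 46.9 CPM in hrde-1, against 0.112 and 0 CPM in WT. Over both libraries this was 1475 counts in hrde-1 against 2 in WT, a ratio of 955 with a 95% counting interval of 264 to 7891. cTel55X.1, on X at 17714961 to 17718726, had 29.3 and 28 CPM in hrde-1, against 0 and 0.0559 CPM in WT, a ratio of 1024 with an interval of 183 to 40497. Such intervals cover counting error only. rnh-1.3, which encodes a ribonuclease H, had 124 and 79.6 CPM in hrde-1, against 3.65 and 2.57 CPM in WT (5.03 ± 0.30, adjusted p = 5.54e-10). timm-17B.2, a homologue of an import channel subunit of the mitochondrial inner membrane, had 68.2 and 83.6 CPM in hrde-1, against 2.70 and 3.97 CPM in WT (4.51 ± 0.29, adjusted p = 1.54e-09). faah-5, which encodes a fatty acid amide hydrolase, had 16.5 and 14.2 CPM in hrde-1, against 0.169 and 0.279 CPM in WT (6.03 ± 0.38, adjusted p = 8.58e-10). fbxb-14, an F-box gene, had 6.45 and 3.15 CPM in hrde-1 and no count in either WT library, so that it was at least 58.7-fold higher (floor of 3 counts over the group).

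F-box and MATH-domain genes, the large families to which fbxb-14 and bath-45 belong, were called less often than genes at large in both directions. Of 350 tested members, 14 were higher and 19 lower, where 15.2% of all tested genes were higher and 7.32% lower. Their median log2 fold change was -0.52, against -0.06 over all tested genes, and 103 of the 350 had a positive value. The count of lower members was 0 without WT replicate 2 and 76 without hrde-1 replicate 2. Among those that were higher, fbxb-97 had 20.6 and 9.31 CPM in hrde-1, against 0.281 and 0.950 CPM in WT (4.58 ± 0.63, adjusted p = 5.29e-05). bath-20 had 8.40 and 5.20 CPM in hrde-1, against 0.337 and 0.782 CPM in WT (3.58 ± 0.45, adjusted p = 1.98e-05).

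Not every large rise was even between replicates. F45D11.15 and F45D11.16, a pair with identical counts on chromosome II, had 5.24 and 34.7 CPM in hrde-1 and none in WT, at least 223.5-fold higher over the group, yet with an adjusted p of 0.0434 and a standard error of 3.55 on the log2 scale. They had an adjusted p of 0.128 in F1, 0.472 in F3 and 1 in P0 hypoxia.

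The hrde-1 transcript itself was not lower in the mutant. It had 503 and 344 CPM in hrde-1, against 310 and 219 CPM in WT, a log2 fold change of 0.68 ± 0.18 (adjusted p = 0.0104), which was not called without WT replicate 2 (adjusted p = 0.209) or without hrde-1 replicate 1 (adjusted p = 0.254). Its level therefore does not check the genotype label. In P0 hypoxia the difference had the other sign, with 555 and 563 CPM in hrde-1, against 863 and 852 CPM in WT (-0.62, adjusted p = 0.0896). The strain difference of the hrde-1 transcript itself differed between normoxia and hypoxia by 1.30 ± 0.25 on the log2 scale (adjusted p = 0.0295). This call was lost, with every other of its kind, without WT normoxia replicate 2, without either WT hypoxia replicate, without hrde-1 hypoxia replicate 1 and in a fit of the 8 P0 libraries alone.

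Other genes of the small RNA pathways were moderately higher. Of 43 tested genes of Argonautes, RNA-dependent RNA polymerases and their cofactors, 21 were higher and none lower, with a median log2 fold change of 0.49. The largest was wago-2, an Argonaute family gene that the annotation lists as a pseudogene, with 286 and 140 CPM in hrde-1, against 29.8 and 27.6 CPM in WT (2.89 ± 0.21, adjusted p = 8e-09). ppw-2, an Argonaute of the germline, had 144 and 109 CPM in hrde-1, against 38.1 and 32.8 CPM in WT (1.84 ± 0.16, adjusted p = 1.64e-07). wago-4, an Argonaute that also acts in inherited RNAi, had 195 and 135 CPM in hrde-1, against 69.7 and 56.4 CPM in WT (1.38 ± 0.16, adjusted p = 6.72e-06). prg-1, the Piwi protein that binds piRNAs, had 306 and 250 CPM in hrde-1, against 129 and 111 CPM in WT (1.21 ± 0.18, adjusted p = 9.33e-05). In all 4 genes both hrde-1 libraries exceeded both WT libraries.

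Further members of the list that rose were ergo-1 (1.13), wago-1 (0.95) and rde-11 (0.77), given as log2 fold changes. They encode an Argonaute of 26G-RNAs, a germline Argonaute and a factor of exogenous RNAi. sid-1, a channel for double-stranded RNA, rose as well, with 83.8 and 64.4 CPM in hrde-1, against 45.01 and 29.1 CPM in WT (adjusted p = 0.00174). alg-1, the Argonaute of microRNAs, had 86.6 and 138 CPM in hrde-1, against 131 and 164 CPM in WT, and was not called (adjusted p = 0.162). Of 16 nuclear RNAi and inheritance factors 7 were higher and none lower, with a median log2 fold change of 0.38. Among them were ZK1067.2 (1.05 ± 0.15), which the annotation names znfx-1 and which encodes a helicase needed for inherited RNAi, pid-2 (1.08 ± 0.21) and emb-4 (0.63 ± 0.14), a helicase that binds nuclear Argonautes. No gene of either list was called in the 4-library fit. Without WT replicate 2 the counts of higher genes were 11 of the 43 and 2 of the 16, and without hrde-1 replicate 1 they were 14 and 3. Germline genes of other functions were higher in the same libraries, as described further on, and their part in these differences was not tested.

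Among the genes that were lower, 1 stretch of chromosome V stood out. Over 181 kb (WBcel235 V 3866556 to 4047433), 31 consecutive genes with counts in WT had almost none in hrde-1. The stretch was found by searching these 4 libraries for runs of at least 5 neighbouring genes. Genes with a mean of at least 10 counts in 1 strain entered, and the other strain had at most 3 counts in each library. The low hrde-1 counts were thus fixed by that choice in these 4 libraries. The summed counts of the 31 genes were 2 and 3 in the hrde-1 libraries, against 5299 and 4427 in the WT libraries, and 30 of the 31 were called lower. The exception was nhr-157, a nuclear hormone receptor gene at one end, with no count in hrde-1, against 0.618 and 0.726 CPM in WT (adjusted p = 0.0652). Over all 16 hrde-1 libraries of the fit the sum ranged from 1 to 9 counts and no gene of the stretch passed 3 counts, whereas the 14 WT libraries held 2020 to 5299. Genes on both sides were expressed in both strains, namely H10D18.5 and H10D18.1 before it, with means of 26 and 16 counts in hrde-1 against 85.5 and 16.5 in WT, and nhr-181 and phat-5 after it, with means of 43.5 and 51 counts in hrde-1 against 78 and 169.5 in WT. RNA counts do not show whether the DNA of the stretch is present in the hrde-1 strain, and this was not tested.

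The annotation places 57 protein-coding genes in the stretch. Those with the most counts included C49G7.3, an uncharacterised gene with 0 and 0.158 CPM in hrde-1, against 71.8 and 46.0 CPM in WT. Over the group this was 2 counts in hrde-1 against 2101 in WT, a ratio of 811 with a counting interval of 224 to 6705. cyp-34A9, 1 of 10 cytochrome P450 genes called in the stretch, had no count in hrde-1, against 54.5 and 49.9 CPM in WT, and was at least 479.7-fold lower in hrde-1. C17E7.4, an uncharacterised gene, had none in hrde-1, against 34.1 and 26.1 CPM in WT, at least 276-fold lower. cyp-34A4 and cyp-34A8 were at least 247-fold and 52.5-fold lower. The stretch also holds nlp-27, nlp-28, nlp-29, nlp-30, nlp-31 and nlp-34, peptide genes of which several are known as antimicrobial peptides of the epidermis. nlp-29 had no count in hrde-1, against 16.0 and 11.7 CPM in WT, at least 127-fold lower, and nlp-28, nlp-31 and nlp-27 were at least 109-fold, 101-fold and 92.2-fold lower. phat-3 and irg-2, the second of which is an infection response gene, were at least 68.0-fold and 47.9-fold lower.

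**Figure D2:**
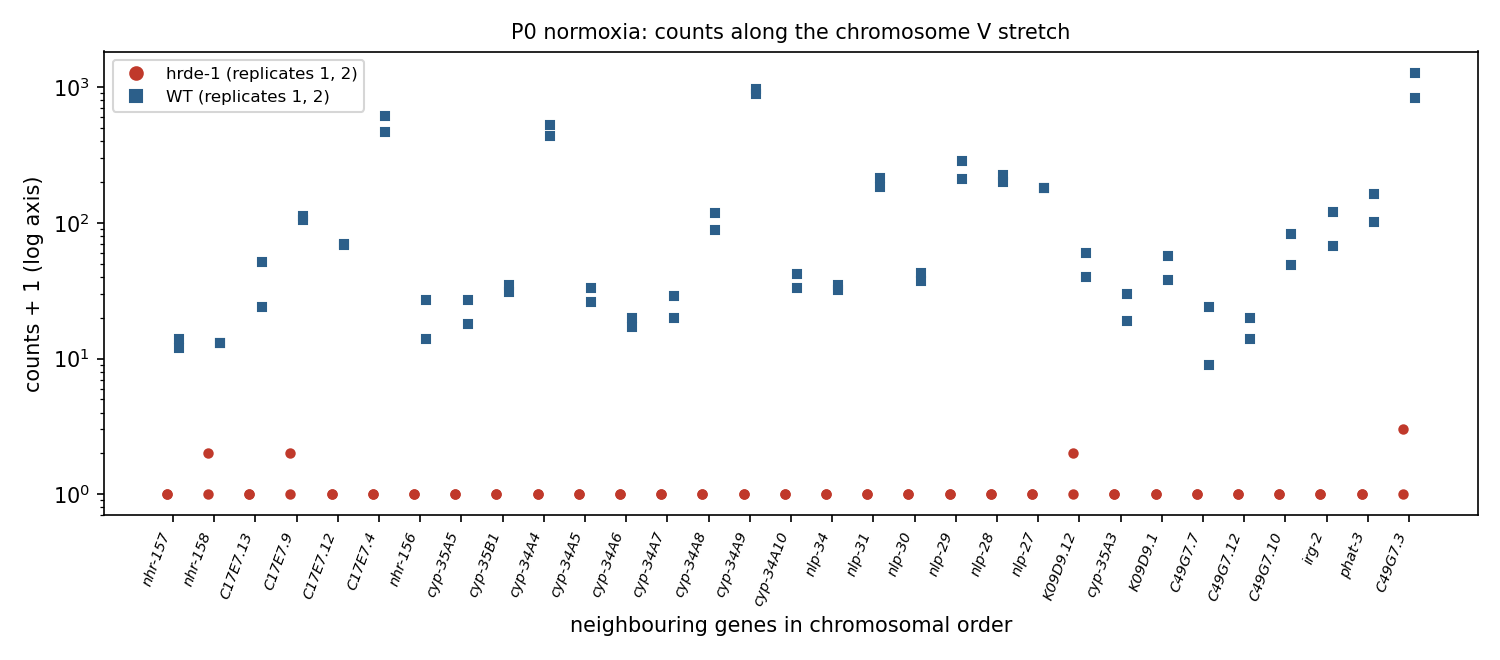
Estimated counts plus 1, on a log axis, of the 31 neighbouring genes of the chromosome V stretch in chromosomal order, with hrde-1 replicates as circles and WT replicates as squares. The hrde-1 libraries sum to 2 and 3 counts over the stretch and the WT libraries to 5299 and 4427. The stretch was chosen on the values of these libraries.

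A second group of lower genes lay at the left end of X. Of the 17 X-linked genes that were lower in hrde-1 in P0 normoxia, F1 normoxia, F3 normoxia and P0 hypoxia alike, 12 lay within the first 207 kb of the chromosome (X 261 to 207723), a window that was drawn after seeing the values. In that window 15 of 23 tested genes were lower and none was higher. The 12 genes together had 190 and 158 counts in the hrde-1 libraries, against 1691 and 1395 in the WT libraries. Their sum ranged from 131 to 254 over all hrde-1 libraries of the fit and from 1395 to 3442 over the WT libraries, a separation that the choice of the genes fixed in those 4 comparisons. Y73B3A.4 had 0.739 and 1.10 CPM in hrde-1, against 17.7 and 15.4 CPM in WT (-4.16 ± 0.29, adjusted p = 3.42e-09). Y73B3A.1 had 1.28 and 1.03 CPM in hrde-1, against 27.3 and 20.6 CPM in WT (-4.36 ± 0.35, adjusted p = 3.91e-08). Unlike the chromosome V stretch, this window held genes with counts in hrde-1, such as the annotated pseudogene Y73B3A.18 with 22.3 and 8.83 CPM in hrde-1, against 9.55 and 9.78 CPM in WT. Of the nspc genes, a family of small peptide genes, 15 of 18 tested were lower, all on X, and none was higher. nspc-15 had 1.48 and 3.86 CPM in hrde-1, against 25.2 and 26.2 CPM in WT (-3.28 ± 0.40, adjusted p = 1.42e-05). The nspc genes resemble each other, so that reads may be split between them.

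By list median, sperm genes had the largest shift after the nuclear RNAi targets. Major sperm proteins form the cytoskeleton of the crawling nematode sperm and act as a signal to oocytes. Of 30 tested msp genes 27 were higher in hrde-1 and none lower, with a median log2 fold change of 3.13. Their summed level was 213 and 316 CPM in the hrde-1 libraries, against 21.6 and 37.7 CPM in the WT libraries. msp-31 had 6.72 and 13.6 CPM in hrde-1, against 0.112 and 0.671 CPM in WT (4.65 ± 0.57, adjusted p = 1.46e-05). msp-40 had 8.80 and 11.8 CPM in hrde-1, against 0.618 and 1.12 CPM in WT (3.55 ± 0.47, adjusted p = 3.05e-05). msp-36 had 12.5 and 13.2 CPM in hrde-1, against 0.843 and 1.51 CPM in WT (3.44 ± 0.46, adjusted p = 3.71e-05). The count of 27 was the same without each of the 4 libraries in turn, and 4 of the genes were called in the 4-library fit. The msp genes are nearly identical in sequence, so that single members are less certain than the sum.

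Of 49 other sperm genes 30 were higher and none lower (20 without WT replicate 2), with a median log2 fold change of 2.35 (2.20 with genes at 0 in 1 strain set to their bound). msd-2, which encodes a small protein with a major sperm protein domain, had 5.98 and 11.2 CPM in hrde-1, against 0.393 and 0.615 CPM in WT (4.06 ± 0.42, adjusted p = 1.9e-06). spe-41, which encodes a calcium channel that sperm need for fertilization, had 31.4 and 23.1 CPM in hrde-1, against 2.70 and 0.447 CPM in WT (4.11 ± 0.47, adjusted p = 6.37e-06). ssp-19, a sperm-specific gene, had 1.54 and 3.94 CPM in hrde-1 and no count in WT, at least 31.5-fold higher.

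Oocyte and germline genes shifted less than sperm genes in their list medians. Of 17 eggshell and oocyte surface genes 13 were higher and none lower, with a median of 0.95. cpg-1, a chondroitin proteoglycan of the eggshell, had 2904 and 1632 CPM in hrde-1, against 854 and 539.7 CPM in WT (1.70 ± 0.27, adjusted p = 0.000182). cbd-1, a chitin-binding eggshell protein, had 3879 and 2003 CPM in hrde-1, against 1168 and 809.7 CPM in WT (1.57 ± 0.27, adjusted p = 0.000407). Of 23 maternal RNA-binding and polarity genes 19 were higher and none lower, with a median of 1.04. lin-41, which controls oocyte maturation, had 606 and 373 CPM in hrde-1, against 220.2 and 134 CPM in WT (1.47 ± 0.24, adjusted p = 0.000276), and mex-5, a polarity protein of the zygote, had 1118 and 605 CPM in hrde-1, against 396 and 252 CPM in WT (1.41 ± 0.26, adjusted p = 0.000662). In each of these genes hrde-1 replicate 1 was the highest library and WT replicate 2 the lowest.

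Genes of the germline and its P granules, the RNA-rich bodies of germ cells, were higher in 17 of 21 cases and lower in none, with a median of 0.73. glh-1, a Vasa-type helicase of P granules, had 231 and 145 CPM in hrde-1, against 94.0 and 82.9 CPM in WT (1.09 ± 0.16, adjusted p = 0.000102). Of 35 meiotic axis and synapsis genes 12 were higher and none lower (median 0.40), among them rec-8, the meiotic cohesin subunit, with 111 and 69.4 CPM in hrde-1, against 50.4 and 39.6 CPM in WT (adjusted p = 0.000755). Of 31 DNA replication genes 12 were higher and none lower (median 0.42), among them mcm-2 of the replicative helicase (1.25 ± 0.20). Of 35 early embryonic genes 1 was lower (sdz-27, -1.36 ± 0.22) and none higher, with a median of -0.54.

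The germline counts other than those of sperm rested on hrde-1 replicate 1 and WT replicate 2. Without hrde-1 replicate 1, 4 of 17 eggshell genes, 3 of 23 maternal genes, 7 of 21 germline genes, 3 of 35 meiotic genes and 2 of 31 replication genes were called higher. Without WT replicate 2 these counts were 4, 3, 5, 1 and 1, and in the 4-library fit all were 0. In whole worms, a larger germline and more RNA per germ cell cannot be told apart.

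**Figure D3:**
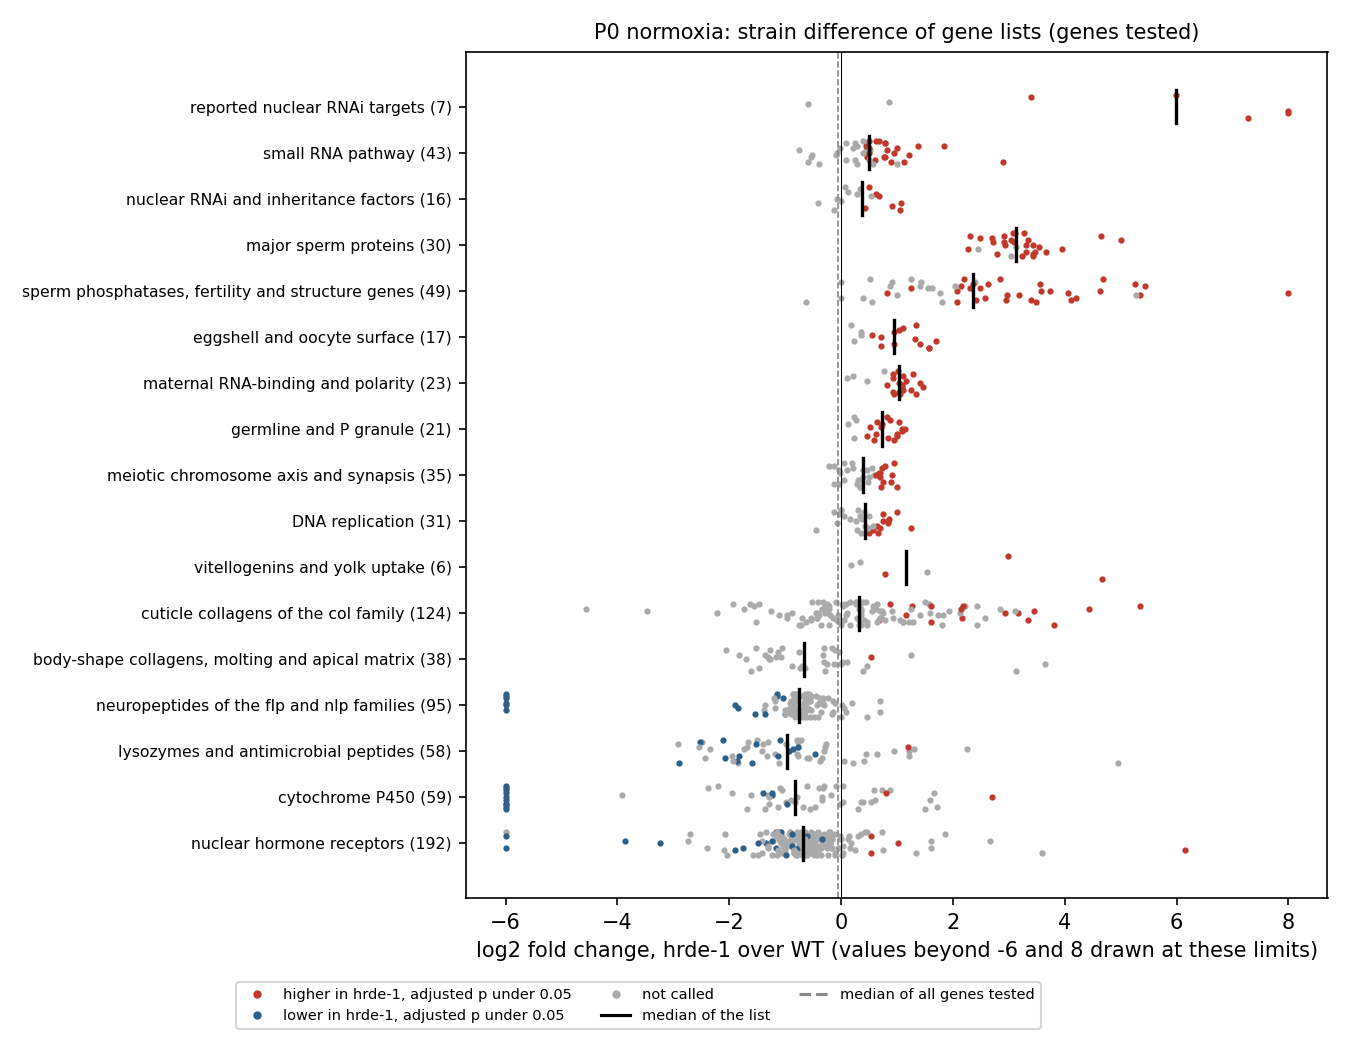
Log2 fold change (hrde-1 over WT) of each tested gene in 17 lists, with the list's median as a black bar and the median of all tested genes as a dashed line. Reported nuclear RNAi targets (median 5.98, with both copies of a pair of identical counts) and major sperm proteins (median 3.13) lie furthest to the right. The called neuropeptide and cytochrome P450 genes at the left limit belong to the chromosome V stretch.

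Yolk protein genes, which the adult intestine expresses to supply oocytes, were higher in part. Of 6 vitellogenin and yolk uptake genes 3 were higher and none lower, with a median of 1.16, and without hrde-1 replicate 1 or WT replicate 2 the count was 1. vit-1 had 3022 and 514 CPM in hrde-1, against 84.7 and 54.8 CPM in WT (4.66 ± 0.54, adjusted p = 7.16e-06), and vit-4 had 6442 and 1585 CPM in hrde-1, against 737 and 272 CPM in WT (2.99 ± 0.74, adjusted p = 0.00677). The hrde-1 libraries lay above the WT libraries but differed by several fold between themselves. vit-2, the member with the most counts in WT, had 20649.9 and 24957 CPM in hrde-1, against 18156 and 17771 CPM in WT, and was not called (adjusted p = 0.181). vit genes share sequence, and reads may be split between them.

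Cuticle genes were called higher about as often as genes at large. Of 124 cuticle collagens of the col family 17 were higher, near the 15.2% of all tested genes, and none lower, with a median of 0.33, and without hrde-1 replicate 1 the count was 9. col-101 had 614 and 115 CPM in hrde-1, against 15.8 and 17.8 CPM in WT (4.44 ± 0.47, adjusted p = 2.42e-06). col-80 had 558 and 110 CPM in hrde-1, against 21.9 and 25.5 CPM in WT (3.82 ± 0.50, adjusted p = 3.28e-05). Again hrde-1 replicate 1 was the highest library in both. Of 38 body-shape collagen, molting and apical matrix genes 1 was higher (nhr-23, a regulator of molting, 0.54 ± 0.15) and none lower, but the median was -0.67. Their summed level was 1188 and 2432 CPM in the hrde-1 libraries, against 3272 and 4577 CPM in the WT libraries. dpy-14, a collagen gene, had 19.9 and 287 CPM in hrde-1, against 446 and 828 CPM in WT, with an adjusted p of 0.0681. fbn-1, a fibrillin-like matrix gene of molting, had 22.0 and 95.3 CPM in hrde-1, against 126 and 122 CPM in WT, with an adjusted p of 0.099. Without hrde-1 replicate 2, 9 of the 38 were lower. In F1 the list had 31 members lower in hrde-1 and a median of -3.56. In P0 normoxia the summed level of the 38 genes did not overlap between the strains, but neither did the CPM of 63.5% of all tested genes. Whether the strains were collected at the same stage was not tested.

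**Figure D4:**
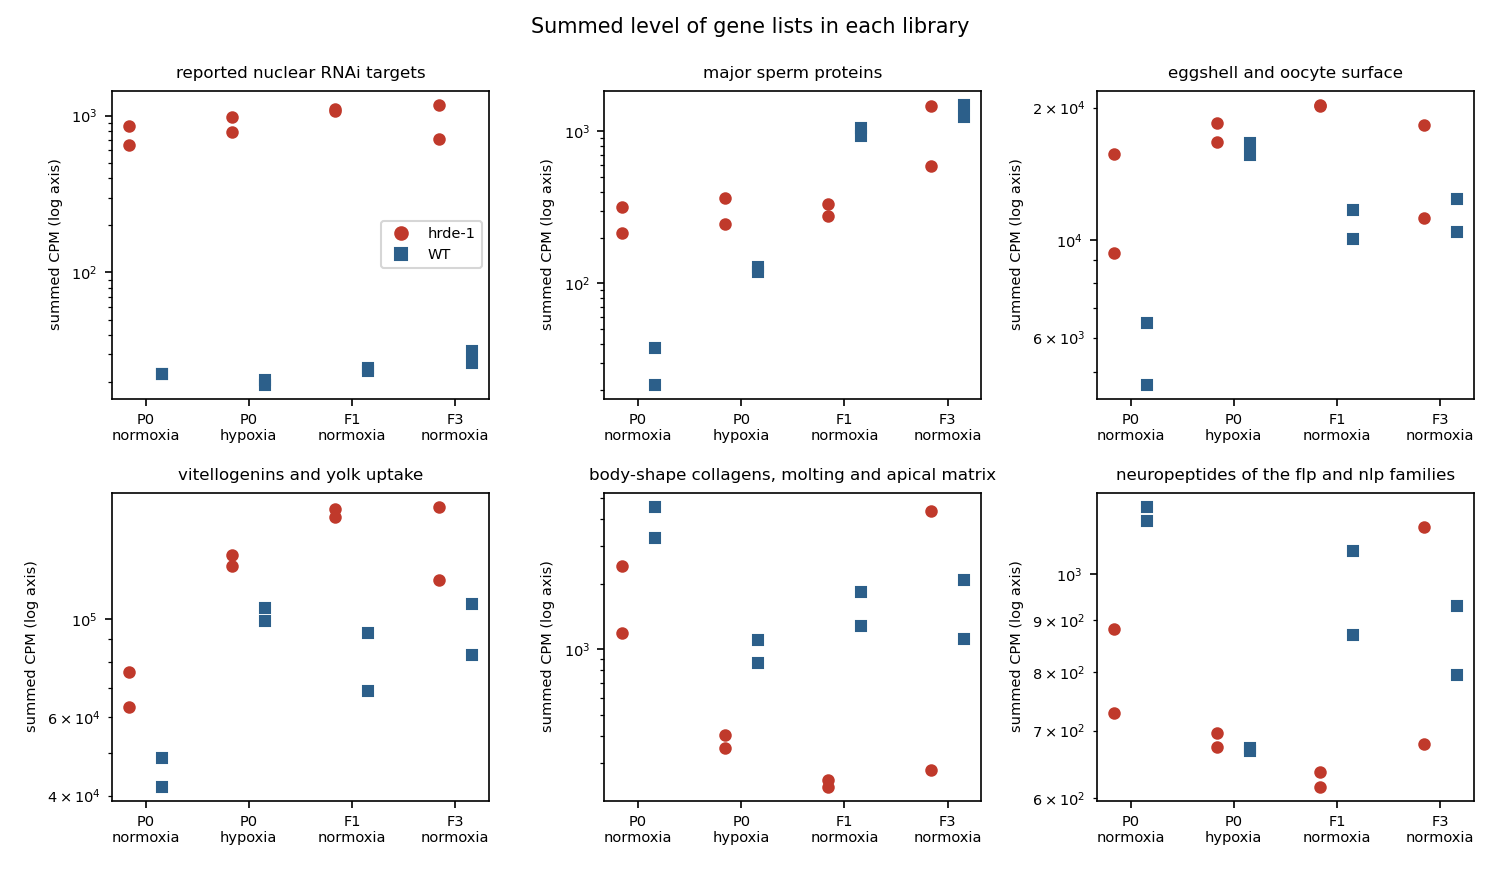
Summed CPM of 6 gene lists in each library, on log axes that differ between panels, with hrde-1 as circles left of WT as squares, for P0 normoxia, P0 hypoxia, F1 normoxia and F3 normoxia. The nuclear RNAi targets are apart between the strains in every comparison, whereas the 21.6 and 37.7 CPM of major sperm proteins in P0 WT normoxia are the lowest of the libraries shown.

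Of 95 neuropeptide genes of the flp and nlp families 16 were lower and none higher, with a median of -0.74, and 6 of the 16 lie in the chromosome V stretch. Without WT replicate 2 the count was 7, and without hrde-1 replicate 2 it was 31. Of 28 synaptic and dense-core vesicle genes 3 were lower and none higher (median -0.36), where 7.32% of all tested genes were lower, and without WT replicate 2 the count was 0. Among the 3 was unc-64, the neuronal syntaxin, with 20.6 and 27.8 CPM in hrde-1, against 39.9 and 49.0 CPM in WT (-0.88 ± 0.22, adjusted p = 0.00763). Of 29 muscle filament genes 4 were higher, near the 15.2% of all tested genes, and 1 was lower. Their median was 0.03, and -0.17 with library totals as the scaling. No muscle gene was called without WT replicate 2, and without hrde-1 replicate 2, 2 were higher and 3 lower. unc-54, the main body wall myosin, had 1573 and 2016 CPM in hrde-1, against 1132 and 1007 CPM in WT (0.75 ± 0.22, adjusted p = 0.0183). Of 22 intestinal genes 1 was higher and 4 lower (median -0.57), and the count of lower genes was 2 without WT replicate 2 or without hrde-1 replicate 1 and 10 without hrde-1 replicate 2. act-5, the actin of intestinal microvilli, rose by 1.64 ± 0.48 with 509.9 and 135 CPM in hrde-1, against 106 and 101 CPM in WT. ges-1, the gut esterase, had 13.2 and 14.98 CPM in hrde-1, against 35.96 and 29.95 CPM in WT (-1.22 ± 0.23, adjusted p = 0.000934).

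Among cytochromes P450 and antimicrobial genes more were lower than higher. More C-type lectins were higher than lower, as were all tested genes, of which 15.2% were higher and 7.32% lower. Of 59 cytochrome P450 genes 14 were lower and 2 higher (median -0.82), and 10 of the 14 lie in the chromosome V stretch. Of 58 lysozyme and antimicrobial peptide genes 14 were lower and 1 higher (median -0.96), and without hrde-1 replicate 1 the count of lower genes was 7. spp-5, a saposin-like pore-forming peptide, had 87.8 and 197 CPM in hrde-1, against 372 and 489 CPM in WT (-1.60 ± 0.24, adjusted p = 0.00011), while lys-1, a lysozyme, rose by 1.20 ± 0.41. C-type lectins moved both ways, with 30 of 141 higher and 9 lower (median 0.14, and -0.02 with library totals as the scaling). Without WT replicate 2, 5 lectins were higher, and without hrde-1 replicate 2, 23 were lower. clec-99 had 1.88 and 4.73 CPM in hrde-1 and no count in WT, at least 38.0-fold higher, and clec-62 had 14.6 and 22.4 CPM in hrde-1, against 45.5 and 49.8 CPM in WT (-1.37 ± 0.30, adjusted p = 0.00264). Of 192 nuclear hormone receptors 19 were lower and 4 higher (median -0.68), a count that was 2 without hrde-1 replicate 1 and 52 without hrde-1 replicate 2.

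Stress genes held no common direction. Of 22 genes of metal and oxidative stress 6 were higher and 2 lower. The 6 became 1 without hrde-1 replicate 1, 2 without WT replicate 2, 4 without WT replicate 1 and 10 without hrde-1 replicate 2. The 2 lower genes were both metallothioneins, which bind metal ions. mtl-1 had 2.62 and 26.8 CPM in hrde-1, against 147 and 203 CPM in WT (-3.58 ± 0.68, adjusted p = 0.000899), and mtl-2 had 5.17 and 10.3 CPM in hrde-1, against 29.9 and 28.9 CPM in WT (-1.94 ± 0.31, adjusted p = 0.00021). gst-4, a glutathione transferase of the oxidative stress response, rose by 3.20 ± 0.53, with 41.0 and 7.57 CPM in hrde-1, against 2.81 and 2.46 CPM in WT. Of 21 heat shock genes 5 were higher and 3 lower (median -0.78), with hsp-1, the constitutive HSP70, higher by 0.86 ± 0.17, and hsp-16.41, a stress-induced small heat shock protein, lower with -1.52 ± 0.49. Of the heat shock genes 1 was higher and 1 lower without WT replicate 2, without hrde-1 replicate 1 these counts were 1 and 0, and without hrde-1 replicate 2 they were 6 and 6. Of 24 unfolded protein response genes, of mitochondria or of the endoplasmic reticulum, 5 were higher and 4 lower (2 and 0 without WT replicate 2 or without hrde-1 replicate 1), and the higher ones included the mitochondrial chaperones hsp-60 (1.09 ± 0.20) and hsp-6 (0.67 ± 0.16). Of 21 genes of the HIF-1 hypoxia pathway none was higher and 3 were lower (median -0.49), among them aha-1, the partner of HIF-1, with 18.3 and 20.5 CPM in hrde-1, against 30.8 and 42.2 CPM in WT (-0.91 ± 0.20, adjusted p = 0.00262). None of the HIF-1 pathway genes was called without WT replicate 2, without hrde-1 replicate 1, 1 was lower, and without hrde-1 replicate 2, 9 were lower. Of 80 cytosolic ribosomal protein genes 10 were higher and 3 lower, where 15.2% of all tested genes were higher and 7.32% lower. Their median was 0.06, and -0.15 when libraries were scaled by their totals alone. Only 4 ribosomal protein genes were higher and none lower without WT replicate 2.

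Of 12 mitochondrially encoded genes 3 were lower and 2 higher. The lower ones, atp-6 (-0.98 ± 0.25), ctc-3 (-1.01 ± 0.35) and ctc-2, encode subunits of the ATP synthase and of cytochrome c oxidase. ctc-2 had 401 and 461 CPM in hrde-1, against 750.3 and 971 CPM in WT (adjusted p = 0.0226). The 2 higher calls rested on 1 library: nduo-3 had 0.269 and 37.9 CPM in hrde-1, against 0.337 and 0.335 CPM in WT, and nduo-2 had 0.470 and 18.0 CPM in hrde-1, against 0.281 and 0.503 CPM in WT. Without hrde-1 replicate 2 neither was called, and the log2 fold change of nduo-3 was -0.24. Neither was called without WT replicate 1 or without WT replicate 2. None of the 12 was lower without WT replicate 2.

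The strain difference was then set beside those of F1 normoxia, F3 normoxia and P0 hypoxia, which share no library with it. In F1 normoxia 1908 genes were higher in hrde-1 (12.3% of those tested) and 3447 lower (22.2%). In F3 normoxia 691 were higher (4.45%) and 685 lower (4.41%), together 8.86%. In P0 hypoxia 233 were higher (1.5%) and 99 lower (0.637%), together 2.14%. Of the 2364 genes higher in P0 normoxia, 982 (41.5%) were also higher in F1, 311 (13.2%) in F3 and 191 (8.08%) in P0 hypoxia. Of the 1138 lower genes, 552 (48.5%) were also lower in F1, 239 (21%) in F3 and 78 (6.85%) in P0 hypoxia. None of the P0 normoxia genes was called in the opposite direction in P0 hypoxia. In fits of the compared libraries alone the order of the 2 P0 counts was reversed. These called 1290 genes in P0 hypoxia, against 65 higher and 19 lower in P0 normoxia. The counts and overlaps therefore do not show a smaller strain difference in P0 hypoxia.

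In all 4 comparisons 134 genes were higher (0.863% of tested genes, 5.67% of those higher in P0 normoxia) and 66 were lower (0.425% and 5.8%). These were mostly genes with large differences, with a median log2 fold change in P0 normoxia of 3.47 for the higher and -3.16 for the lower genes (-2.995 with genes at 0 in 1 strain set to their bound), against 0.96 and -1.19 over all called genes. The 134 include C38D9.2, with log2 fold changes of 7.29 in P0 normoxia, 9.25 in F1, 7.08 in F3 and 7.23 in P0 hypoxia, and F15D4.5, with 5.98, 6.86, 6.80 and 7.003 in the same order. They also include rnh-1.3 (5.03, 5.10, 4.97 and 5.12) and timm-17B.2 (4.51, 4.96, 4.81 and 4.99). By annotation 102 of the 134 were protein coding and 26 were pseudogenes, whereas pseudogenes were 552 of the 15536 tested genes. Among all genes higher in P0 normoxia pseudogenes did not stand out. There 74 of the 552 were higher (13.4%), against 15.3% of protein-coding genes. Of the 66 lower genes 33 were on chromosome V, 20 of them in the stretch described above, and 17 on X. Of the genes called in the 4-library fit, 41 of 65 higher and 17 of 19 lower genes were among those found in all 4 comparisons.

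Tested directly, the strain difference in P0 normoxia differed from the mean of F1 and F3 normoxia in 1603 genes (10.3% of those tested), with 1260 (8.11%) more positive and 343 (2.21%) more negative in P0. None of the 7 reported nuclear RNAi targets was among them. Of the 30 major sperm proteins 28 differed, all more positive in P0: in F1, 25 of them were lower in hrde-1 and none higher (median -1.68), and in F3, 1 was lower (median -0.33). Their sum in WT was 21.6 and 37.7 CPM in P0 normoxia, 929 and 1061 CPM in F1 and 1251 and 1504 CPM in F3. In hrde-1 it was 213 and 316 CPM in P0 normoxia, 278 and 331 CPM in F1 and 595 and 1467 CPM in F3. Of the 49 other sperm genes 36 differed, again all more positive in P0.

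**Figure D5:**
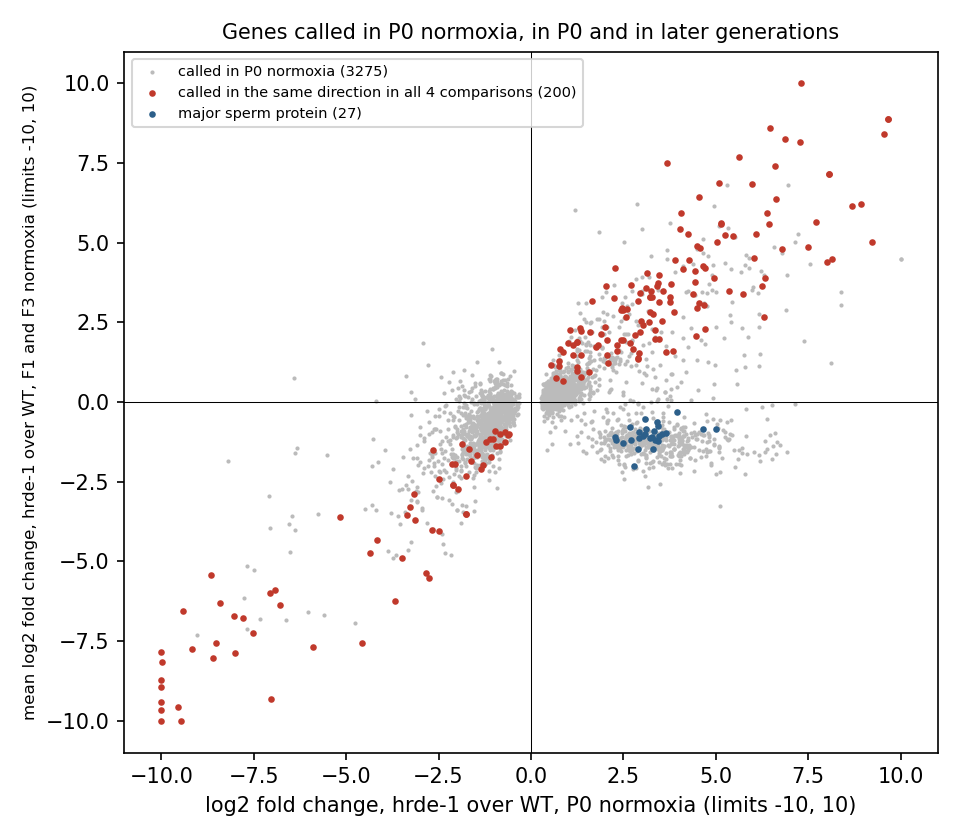
Log2 fold change (hrde-1 over WT) in P0 normoxia against the mean of F1 and F3 normoxia for the genes called in P0 normoxia, drawn within limits of -10 and 10. Genes called in the same direction in all 4 comparisons (134 higher and 66 lower) follow a rising band, while the 27 called major sperm proteins lie right of 0 and below it, in a second cloud of points.

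The second cloud in that plot can be described by its calls. There were 453 genes higher in hrde-1 in P0 normoxia and lower in F1 normoxia, with median log2 fold changes of 3.19 in P0 normoxia (3.10 at the bound), -2.13 in F1, -0.41 in F3 and 1.11 in P0 hypoxia. Of them 25 were major sperm proteins and 24 were other listed sperm genes, 443 were protein coding, and 154 lay on chromosome IV. None lay on X, which held 13.6% of the tested genes and 79 of the other 1911 genes higher in P0 normoxia. These 453 genes were also unlike the others in the replicates: hrde-1 replicate 1 lay above replicate 2 in 25.8% of them, against 71.3% of all genes called higher. Their median levels were 1.41 and 1.97 CPM in hrde-1, against 0.169 and 0.224 CPM in WT.

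Among single genes with the smallest p in this test of the difference were some that were not called in P0. acs-11, an acyl-CoA synthetase, had 53.0 CPM in both hrde-1 libraries, against 51.7 and 57.1 CPM in WT, and a log2 fold change of -0.04 in P0, -2.54 in F1 and -2.76 in F3. aqp-1, an aquaporin of the intestine, had 0.18 in P0, -5.88 in F1 and -4.47 in F3. acer-1 had 0.19, -2.34 and -2.17, and pyp-1, an inorganic pyrophosphatase, 0.42, -1.61 and -1.39. On the other side, spp-17, a saposin-like gene, had -0.87 in P0 (adjusted p = 0.00492), 1.23 in F1 and 1.27 in F3. asp-4, an aspartyl protease of lysosomes, had -0.56, 1.06 and 0.58, and nid-1, the basement membrane protein nidogen, -0.49, 1.75 and 1.84. T24B8.5, a peptide gene of the innate immune response, was higher throughout, with 1.20, 7.95 and 4.12.

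Between P0 normoxia and P0 hypoxia the strain difference itself differed in 51 genes (0.328% of those tested), 45 of them (0.29%) more positive and 6 (0.0386%) more negative in normoxia. They include wago-2 (a difference of 1.78 ± 0.28, adjusted p = 0.0136), ppw-2 (1.13, adjusted p = 0.0295), wago-4 (1.14, adjusted p = 0.0295) and vit-1 (4.06, adjusted p = 0.0188). This count was between 0 and 1749 when each library of these groups was left out in turn, and 0 in a fit of the 8 P0 normoxia and hypoxia libraries alone, in which 2500 genes had an unadjusted p under 0.05. Hence no firm number of genes can be given for it.

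The calls were unevenly spread over the chromosomes. On X, 79 of 2111 tested genes were higher (3.74%) and 228 lower (10.8%), with a median log2 fold change of -0.45. On the autosomes together, 2283 of 13391 were higher (17%) and 907 lower (6.77%), with a median of -0.0013. On chromosome V, 367 of 3050 were higher (12%) and 252 lower (8.26%), against 15.2% and 7.32% of all tested genes. The 252 include the 30 lower genes of the stretch described above. In the libraries of the other comparisons the median of X was -0.49 in F1, -0.16 in F3 and -0.07 in P0 hypoxia, against -0.24, -0.06 and 0.03 over all tested genes.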

How the data were processed

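Poly(A) RNA of whole worms was sequenced as paired reads, per the labels' protocols. The authors deposited 1 table of estimated counts per gene, not all of them whole numbers, for 32 libraries. Tools named in the submitters' processing notes were Bowtie2, RSEM, featureCounts, edgeR and cutadapt 2.5. The sources used here give neither their roles nor the genome build. Gene names and places came from an Ensembl annotation of WBcel235, which matched 46817 of 46904 IDs (99.8%).

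Rounded to whole numbers, the deposited values were filtered with filterByExpr, scaled with TMM factors and tested with edgeR 4.0.16 (limma 3.58.1, R 4.3.3) by the quasi-likelihood test over 15 groups, with Benjamini-Hochberg adjustment and a threshold of 0.05. The F2 WT normoxia columns, which follow other WT columns of the table, were left out of the fit. Differences between strain effects were tested as contrasts of the same fit. CPM use the TMM-scaled library size. The test was checked on simulated data in which all groups had the same spread per gene. Such data cannot check whether the real groups share a spread. DESeq2 1.42.0 was an alternative, as were other scalings, filters, sets of libraries, a replicate block and leaving out each library.

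Named genes were hrde-1, the largest and the most significant calls per direction, up to 3 called members per direction of each of 35 gene lists, the smallest p of the test between generations, and members of a stretch of neighbouring genes. Listed genes were matched by ID, families by the names in the table. F-box and sperm genes given as further examples follow the same rule. The comparison and the lists were chosen with earlier results of these data known. Counts of near-identical copies are uncertain, as are those of genes whose exons overlap another annotated gene, among them faah-5, fbxb-14, prg-1, ergo-1, pid-2, msd-2, mcm-2, vit-2, vit-4, gst-4, aha-1, asp-4 and aqp-1, since strand use in counting is not given. A bound on a fold uses a floor of 3 counts over a group, and intervals are at 95%.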

Additional observations from a re-analysis of the deposited data

Results flagged for a closer look

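The following strain differences differed between groups by a direct test (edgeR's quasi-likelihood test of the contrast, Benjamini-Hochberg adjusted), given as log2 values of P0 normoxia minus the other. Against the mean of F1 and F3 normoxia, 1260 genes had a more positive and 343 a more negative strain difference in P0 normoxia. Groups of 2 libraries are too small for a test of single libraries.

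The difference was 1.52 for faah-5, which was also called higher in F1, F3 and P0 hypoxia. Among the small RNA genes it was 1.51 for wago-2, 1.30 for ppw-2, 0.89 for wago-4, 0.77 for prg-1, 0.56 for ZK1067.2 (znfx-1) and 0.53 for emb-4. Among sperm genes it was 5.51 for msp-31, 4.65 for msp-36, 4.56 for msp-40, 4.89 for msd-2 and 2.80 for spe-41. The fitted 6.89 for ssp-19 depends on the prior count, since WT had no count in P0 normoxia. Germline and replication genes differed by less, with 0.93 for rec-8, 0.82 for mcm-2, 0.70 for glh-4 and 0.69 for par-3.

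In other tissues the difference was 2.94 for col-80, 1.19 for unc-54, 0.73 for rps-2, -0.81 for aha-1, -2.04 for hsp-16.41 and -2.12 for mtl-2. Of the genes with the smallest p, aqp-1 differed by 5.35, acs-11 by 2.61, acer-1 by 2.44 and pyp-1 by 1.92, and in the negative direction T24B8.5 by -4.83, nid-1 by -2.28, spp-17 by -2.12 and asp-4 by -1.37.

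Against P0 hypoxia, 45 genes had a more positive and 6 a more negative strain difference in normoxia. The difference was 1.30 for hrde-1, 1.78 for wago-2, 1.14 for wago-4 and 1.13 for ppw-2. It was 4.06 for vit-1, 3.26 for col-101, 2.71 for col-143, 2.91 for msd-2 and -2.31 for mtl-2, and the fitted 7.04 for ssp-19 again depends on the prior count. In vit-1, col-101 and col-143 the higher of the 2 hrde-1 libraries was replicate 1.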

How the results depend on the processing

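Fitting only the libraries compared called 65 higher and 19 lower genes in P0 normoxia, 556 for the difference from F1 and F3, 0 for the difference from P0 hypoxia, 35 in F3, 1290 in P0 hypoxia, and 14 higher and 5 lower in all 4 comparisons. These fits hold fewer libraries and take the spread from their own groups. In F1 they called 7328 in place of 5355, and in P0 hypoxia the count rose from 332, whereas it fell in P0 normoxia and F3. Replicates of hrde-1 and WT correlated at r = 0.964 and 0.989 in P0 normoxia and 0.932 and 0.986 in F3. In F1 these were 0.992 and 0.989, and in P0 hypoxia 0.991 and 0.995. Whether the shared spread of the larger fit is too small for the P0 normoxia groups was not tested. Leaving out each library in turn gave 884 to 2949 higher and 202 to 2240 lower genes in P0 normoxia, 790 to 2356 and 0 to 1749 for the differences from F1 and F3 and from P0 hypoxia, 2179 to 4033 in F1, 495 to 3221 in F3, 170 to 235 in P0 hypoxia, and 92 to 170 higher and 43 to 100 lower in all 4. Library totals as the scaling gave 2041 lower genes. The difference from P0 hypoxia, 51 genes, was 193 with DESeq2 size factors, 340 with library totals, 170 with no filter, 215 with a filter of 5 CPM, 252 with all 32 libraries and 832 with DESeq2's Wald test; the cause was not tested. The counts over all 4 comparisons were put through these alternatives after seeing the data.

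With replicate number as a block, 2359 genes were higher and 1178 lower in P0 normoxia, and 1567, 46, 5349, 1329 and 328 were called for the difference from F1 and F3, that from P0 hypoxia, F1, F3 and P0 hypoxia. In all 4 comparisons 134 were higher and 65 lower. Same-numbered libraries of the P0 normoxia groups correlated in their deviations with r = 0.35, but only 18 of 105 pairs of groups passed 0.1, so the numbers are not read as pairing. The block changed no call of a described gene.

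Of the described genes, signs turned for 1 called gene, nduo-3, at -0.24 without hrde-1 replicate 2 (up to 6.78 without hrde-1 replicate 1), and for 3 uncalled genes. The gene acs-11 had 0.0166 with the P0 libraries alone, 0.00707 with the compared libraries alone and -0.0571 to 0.0522 with each library left out. The gene acer-1 had -0.0188 with library totals. The gene aqp-1 had -0.0326 with library totals and -0.124 to 0.495 with each library left out. Among all 3502 called genes, 5 turned sign without hrde-1 replicate 1 and 2 without hrde-1 replicate 2, none of them still called. Of the described genes, 81 lost their call with the compared libraries alone, 34 without WT replicate 2 and 30 without hrde-1 replicate 1. With 2 libraries per group, a difference that misses the threshold is not shown to be absent.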

Other observations

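Counts in the remaining gene groups stand beside 15.2% of all tested genes higher and 7.32% lower. Of 64 hedgehog-related genes 2 were higher and 1 lower in hrde-1, with a median log2 fold change of -0.68. The higher ones were ptc-1, a Patched receptor needed in the germline, with 1031 and 571 CPM in hrde-1, against 513 and 406 CPM in WT, and ptr-2, a Patched-related gene, with 417 and 222 CPM in hrde-1, against 182 and 118 CPM in WT. Of 28 fat metabolism genes 4 were higher and none lower (median 0.40), among them atgl-1, the adipose triglyceride lipase, with 127 and 107 CPM in hrde-1, against 92.4 and 81.1 CPM in WT. Of 48 histone genes 1 was higher and 1 lower (median -0.24), and of 20 insulin-like peptides 1 was higher (ins-31) and none lower (median -0.41).

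Of 5 uterine lumen genes 1 was higher and 2 lower (median 0.10, and -0.09 with library totals as the scaling). Of 21 pals genes, a family linked to the response to intracellular pathogens, 2 were lower and none higher (median -1.06). No pals gene was called without WT replicate 2, and without hrde-1 replicate 2, 5 were lower. The 2 were pals-22, with 1.34 and 2.60 CPM in hrde-1, against 3.71 and 5.70 CPM in WT, and pals-23, with 3.69 and 9.54 CPM in hrde-1, against 15.7 and 17.2 CPM in WT.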
